A study of Saccharomyces cerevisiae with 6 samples.

Results

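The genes described here encode the respiratory chain and the ATP synthase of Saccharomyces cerevisiae, as far as they lie in the nucleus. They were chosen by name, as 41 listed ORFs: 3 NADH dehydrogenases, 4 subunits of complex II, 9 of complex III, 9 of complex IV, both isoforms of cytochrome c and 14 genes of the ATP synthase. Of the 41, 40 were measured among 6174 ORFs, and ATP18 (YML081C-A), a small subunit of the ATP synthase, was not analysed here. Transcript ratios came from 6 two-colour arrays, each of which set cells after 10 h with 2 µg/ml doxycycline against untreated cells of the same strain, grown at 30 °C on YPG, a rich medium whose carbon source, glycerol, yeast uses by respiration. The strain tetYFH1 is BQS201 (W303-1A tetO7-YFH1::kanMX4), in which doxycycline turns off YFH1, the gene of frataxin. W303-1A (here W303) is the unmodified parent, and its cells were given the same drug. There were 4 arrays of tetYFH1, which form the dye-swap pairs A (A1, A2) and B (B1, B2), and 2 arrays of W303, which form 1 pair. Since each strain was followed over the same 10 h, the drug and the time cannot be told apart within a strain, and whether pairs or arrays came from separate cultures is not given in the labels, so a p-value here reflects the spread between these samples alone, which may be technical.

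The respiratory chain passes electrons from NADH and succinate to oxygen and pumps protons, and the ATP synthase uses the proton gradient to make ATP. Yeast has no proton-pumping complex I: NADH is oxidised by single-protein dehydrogenases, NDI1 on the matrix side of the inner membrane and NDE1 and NDE2 on its outer side. Frataxin serves the assembly of iron-sulfur clusters, which complexes II and III carry, and heme stands in complexes II, III and IV and in cytochrome c. Complexes III and IV and the membrane part of the ATP synthase also hold subunits encoded by mitochondrial DNA. Of the 7 mitochondrial genes listed for this purpose (COX1, COX2, COX3, COB, ATP6, ATP8 and OLI1) 0 were measured, so the nuclear subunits are described without them.

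Every value below is a log2 ratio of treated over untreated cells, as the authors deposited it. The values of a pair are given with its first array first. For a mean, the arrays of each pair were averaged first, so that n = 2 pairs for tetYFH1 and n = 1 for W303. YFH1 itself, the check of the labels, had a mean of −4.11 ± 1.61 (SD, n = 2) in tetYFH1 and −0.08 and −0.05 on the W303 arrays. YFH1 thus checks the direction of the ratios for tetYFH1 only. That of W303 rests on the labels alone, and values with the W303 ratios turned to untreated over treated are given beside results that depend on it. Pair B stood apart from the other arrays: the SD over all ORFs was 0.744 on B1 and 0.654 on B2, against 0.392 to 0.459 elsewhere, and 27.7% of all ORFs read exactly 0 on B1 and 14.3% on B2. Among the 40 genes, 14 read exactly 0 on B1 and 7 on B2. The labels do not mention how these zeros arose. The array medians of all ORFs lay between 0.00 (B1) and 0.21 (B2). Ratios from whole cultures cannot tell fewer cells with a transcript from less of it in each cell, and they hold no level, so the genes cannot be ordered by abundance.

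Of the 40 genes, 1 lay far below 0 in tetYFH1 and 39 close to it or a little above. NDE2 (YDL085W), an external NADH dehydrogenase, read −1.20 and −1.33 in pair A and −2.22 and −2.73 in pair B, and −0.14 and 0.59 in W303. All 4 tetYFH1 values lay below 0 and below both W303 values, as held for 1 of the 40 genes and for 4.26% of all ORFs, and they stayed below the W303 values when those were turned. Its mean in tetYFH1 was −1.87 ± 0.86 (SD, n = 2; 95% interval −2.59 to −1.15), 3.66-fold lower, with an unadjusted limma p of 3.60e-04 and an adjusted p of 0.0797, which missed the threshold of 0.05. The means of the other 39 genes lay between −0.04 (COX9) and 0.89 (CYC1), and 37 of the 40 were above 0, as were 65.8% of all ORFs. The median over the 40 genes was 0.27, against 0.11 over all ORFs.

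With limma, 0 of the 40 genes passed an adjusted p of 0.05 in tetYFH1. Over all ORFs 0.405% passed, all 25 of them lower and 0 higher. An unadjusted p under 0.05 was found for 6 of the 40 (15%, against 9.46% of all ORFs), 1 lower (NDE2; 3.63% of all ORFs were lower at this level) and 5 higher (CYC1, QCR9, CYT1, SDH4 and CYC7; 5.83% of all ORFs were higher). In W303, 0 of the 40 passed with limma and 0 had an unadjusted p under 0.05, where 0% and 2.62% of all ORFs did. With each array counted as a replicate, NDE2 (limma adjusted p 0.00552) and CYC1 (0.0235) passed in tetYFH1, as did 86 of all ORFs. NDE2 alone of the 40 passed (0.0115) when the number of the hybridisation within its pair was also a term, with 59 of all ORFs. As far as the labels say, the arrays of a dye swap share their RNA, so these p-values may count technical repeats as replicates.

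**Figure D1:**
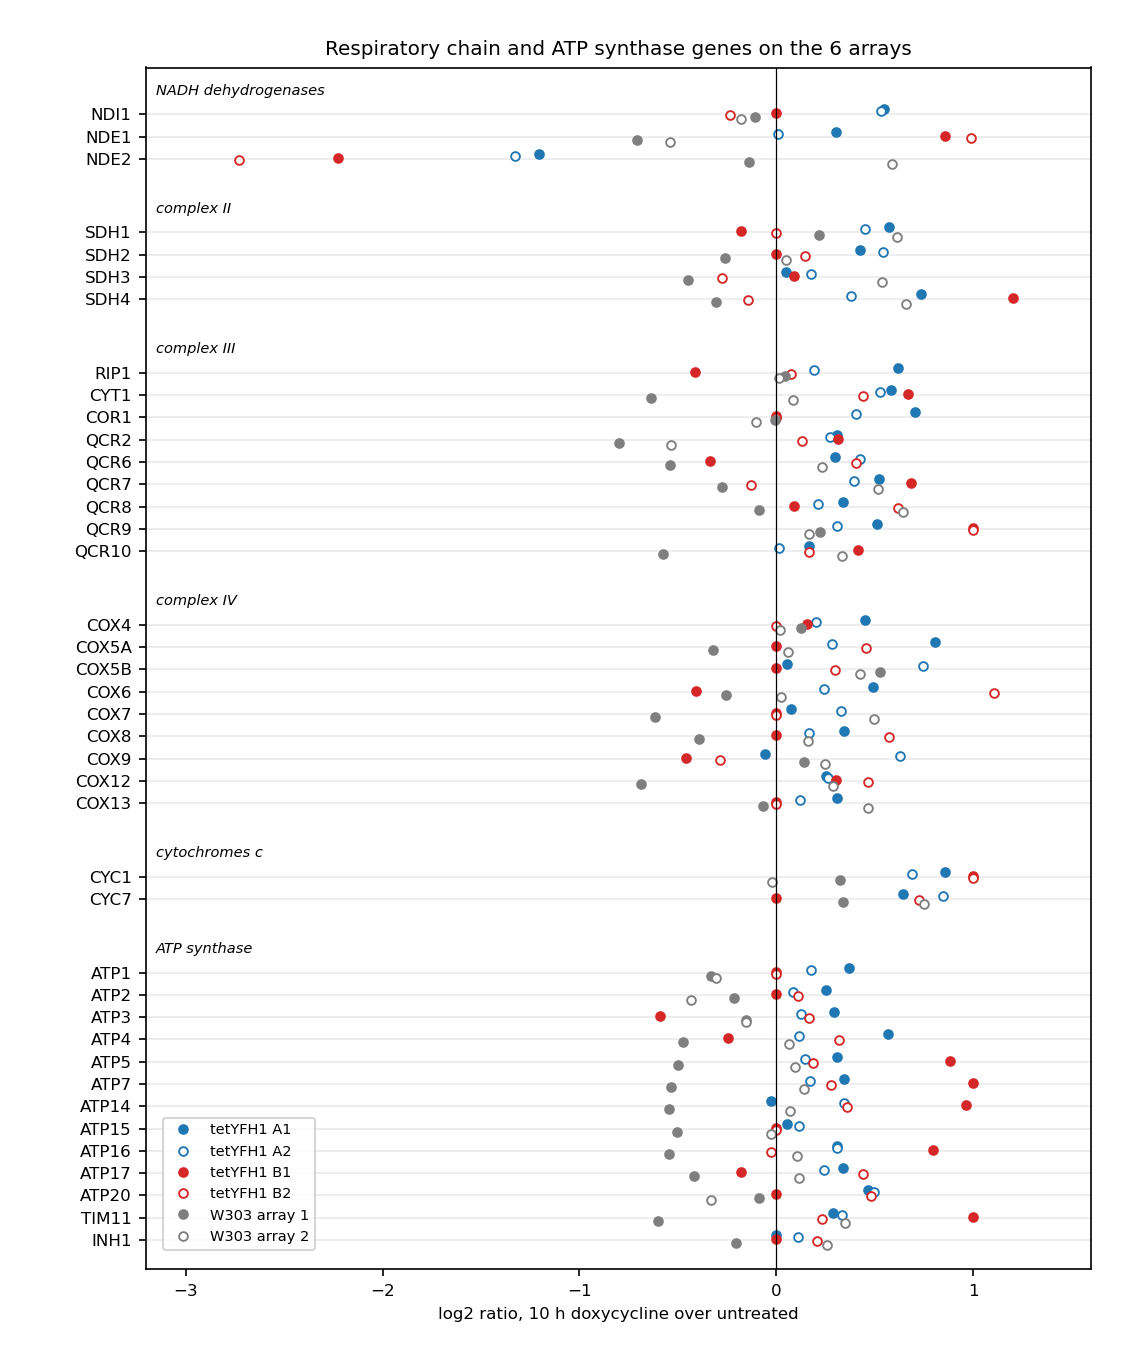
Log2 ratio of treated over untreated cells for each of the 40 measured genes (rows, grouped by complex) on the 6 arrays (points: blue for pair A, red for pair B, grey for W303; filled for the first array of a pair, open for the second). NDE2 stands alone at −1.20 to −2.73 on the tetYFH1 arrays, and all other tetYFH1 values lie between −0.59 and 1.20.

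Pair A and pair B gave different pictures of the 40 genes. In pair A the genes were above 0 nearly without exception. On A1 and A2 both, 36 of 40 (90%) read above 0, where 37.7% of all ORFs did. The medians of the 40 were 0.34 on A1 and 0.27 on A2, against 0.03 and 0.02 over all ORFs. In pair B 12 of 40 (30%) were above 0 on both B1 and B2, against 25.3% of all ORFs, and the medians of 0.00 on B1 and 0.18 on B2 stood beside 0.00 and 0.21 for all ORFs. The quartiles on B1 were 0.00 and 0.67 for the 40 genes and −0.28 and 0.26 for all ORFs, and 22.5% of the genes were below 0 there, against 37.7% of all ORFs. An exact 0 counts here as not above 0, and 16 of the 40 genes (40%) read exactly 0 on at least 1 array of pair B, against 36% of all ORFs. Of the 40, 11 were above 0 on all 4 arrays (11.5% of all ORFs), namely NDE1, CYT1, QCR2, QCR8, QCR9, QCR10, COX12, CYC1, ATP5, ATP7 and TIM11. After each array was centred on its own median, 7 of 40 lay above it on all 4 arrays, where 8.73% of all ORFs did.

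**Figure D2:**
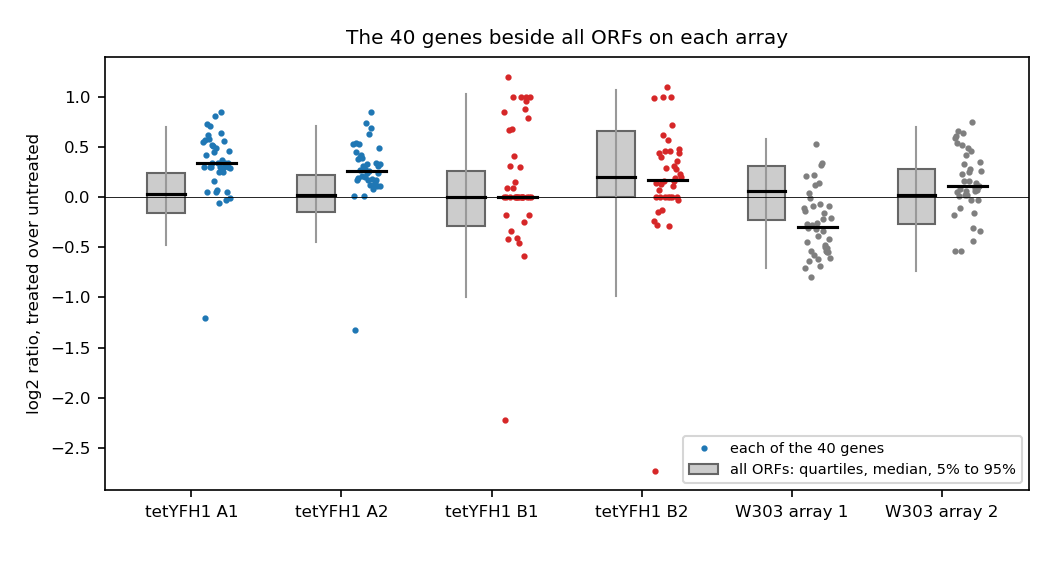
For each array, the grey box gives the quartiles and median of all 6174 ORFs with a line from 5% to 95%, and the points beside it are the 40 genes with their median as a black line. The genes' median lies at 0.34 and 0.27 on A1 and A2, at 0.00 and 0.18 on B1 and B2, and at −0.29 and 0.11 on the W303 arrays.

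The order of the genes carried over only weakly from 1 pair to the other, and so did that of all ORFs (Spearman's rho 0.21). Across the 40 genes, which share the arrays and are not independent replicates, Spearman's rho between the pair means was 0.19, and 0.12 over the 39 genes without NDE2. Pearson's r was 0.73 with NDE2 and 0.19 without it, against 0.31 over all ORFs. Within pair A, r between A1 and A2 was 0.70 with NDE2 and 0.28 without it, against 0.60 over all ORFs. Within pair B these values were 0.58 and 0.17, against 0.40 over all ORFs. The spread among the 39 other genes was narrow in pair A, with an SD of 0.23 on A1 and 0.20 on A2, and wider in pair B (0.49 and 0.36).

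**Figure D3:**
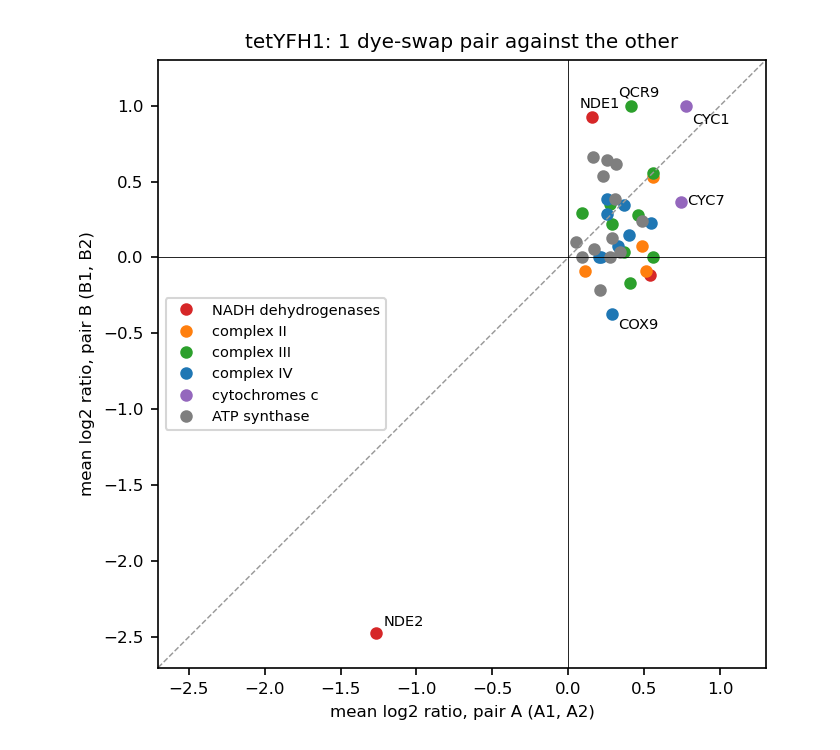
Mean log2 ratio of each of the 40 genes in pair A (horizontal) against pair B (vertical) in tetYFH1, coloured by complex, with the line of equal values dashed. NDE2 lies at −1.27 and −2.48, and the other 39 genes lie between 0.05 and 0.77 in pair A and between −0.37 and 1.00 in pair B.

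The NADH dehydrogenases were the group whose members differed most in their means. NDE1 (YMR145C), the other external enzyme, read 0.30 and 0.01 in pair A and 0.86 and 0.99 in pair B, and −0.71 and −0.54 on the W303 arrays. It was thus above 0 on all tetYFH1 arrays and below 0 on both of W303, a pattern found for 2 of the 40 genes (NDE1 and QCR2) and for 3.3% of all ORFs, with a tetYFH1 mean of 0.54 ± 0.54 (SD, n = 2, limma adjusted p 0.536). NDE1 exceeded NDE2 by 1.51 and 1.34 in pair A and 3.08 and 3.72 in pair B in log2 ratio, and lay under it by 0.57 and 1.13 on the W303 arrays. The gap thus had 1 sign in tetYFH1 and the opposite one in W303 as labelled, but with the W303 ratios turned NDE1 exceeded NDE2 there too, by 0.57 and 1.13, and no test of the gap was made. NDI1 (YML120C), which passes electrons from matrix NADH to ubiquinone, read 0.55 and 0.53 in pair A and 0.00 and −0.23 in pair B. Its pair means were on opposite sides of 0. NDE1 and NDE2 are related in sequence, and the type of probe is not given in the sources used here, so signal that such copies share cannot be separated.

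**Figure D4:**
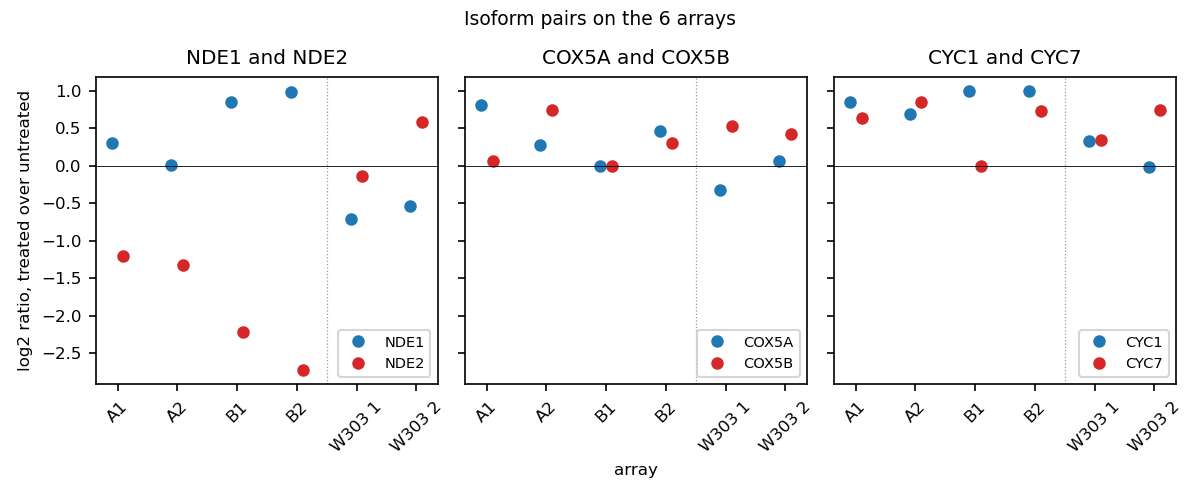
Log2 ratio of treated over untreated cells on the 6 arrays for 3 pairs of isoforms (blue for the first named, red for the second; the dotted line parts tetYFH1 from W303). NDE2 lies 1.34 to 3.72 below NDE1 on the tetYFH1 arrays and above it on both W303 arrays as labelled (below it by 0.57 and 1.13 with those ratios turned), while the points of the other 2 pairs cross from array to array.

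Complex II, the succinate dehydrogenase, feeds electrons from the citric acid cycle into the chain, and its 4 genes were above 0 in pair A and mixed in pair B. SDH1 (YKL148C), the subunit with the flavin, read 0.57 and 0.45 in pair A and −0.18 and 0.00 in pair B. SDH2 (YLL041C), which holds the iron-sulfur clusters, read 0.43, 0.54, 0.00 and 0.14 on the same arrays, and its mean of 0.28 ± 0.29 (SD, n = 2) had a limma adjusted p of 0.726. SDH3 (YKL141W) and SDH4 (YDR178W) anchor the enzyme in the membrane and bind its heme. SDH4 had a mean of 0.54 (95% interval 0.04 to 1.05, unadjusted p 0.0380, adjusted p 0.501), but B1 read 1.20 and B2 −0.14. Its close pair means of 0.56 and 0.53 therefore hide a wide spread between the arrays of pair B. SDH3 was near 0 throughout, between −0.27 and 0.18 in tetYFH1. The median of the 4 genes was 0.50 in pair A and −0.01 in pair B.

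Complex III, the cytochrome bc1 complex, takes electrons from ubiquinone to cytochrome c. All 9 of its measured subunits had means above 0, from 0.12 (RIP1) to 0.70 (QCR9), as did 65.8% of all ORFs. CYT1 (YOR065W), cytochrome c1, which carries a heme, was the steadiest of the genes with a low unadjusted p. It read 0.58 and 0.53 in pair A and 0.67 and 0.44 in pair B, against −0.64 and 0.09 on the W303 arrays. The tetYFH1 values all lay above those of W303 as labelled, though not with the W303 ratios turned, and the mean of 0.56 (95% interval 0.05 to 1.06) had an unadjusted p of 0.0348 and an adjusted p of 0.501. QCR9 (YGR183C), a small subunit, read 0.51 on A1, 0.31 on A2 and 1.00 on both B1 and B2, with 0.22 and 0.17 in W303. Its mean was 0.70 ± 0.42 (SD, n = 2, limma adjusted p 0.501), and both of its values in pair B were exactly whole numbers. RIP1 (YEL024W), the Rieske iron-sulfur protein, read 0.62 and 0.19 in pair A and −0.41 and 0.07 in pair B, and 0.04 and 0.02 in W303. Its groups overlapped.

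The core proteins COR1 (YBL045C) and QCR2 (YPR191W), which hold no cofactor, were above W303 as labelled on every tetYFH1 array. Neither was with the W303 ratios turned, and QCR2 was below W303 on every array. QCR2 read 0.31 and 0.27 in pair A and 0.31 and 0.13 in pair B, against −0.80 and −0.53 on the W303 arrays. The gap between the strains came more from the W303 values than from those of tetYFH1, whose mean was 0.26 ± 0.05 (SD, n = 2). COR1 read 0.71 on A1 and 0.41 on A2 but exactly 0 on B1 and B2, against −0.004 and −0.10 in W303, so that its groups all but touched. The remaining small subunits QCR6, QCR7, QCR8 and QCR10 had tetYFH1 means between 0.19 and 0.37. QCR7 and QCR8, which bind cytochrome b, overlapped with W303, as did QCR6 and QCR10. For QCR6, B1 (−0.33) lay far from the other 3 arrays, which read 0.30 to 0.43. By Dixon's criterion 3 of the 40 genes (7.5%) had 1 tetYFH1 array so far from the rest, against 9.33% of all ORFs.

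Complex IV, the cytochrome c oxidase, hands electrons to oxygen, and its 9 nuclear subunits surround a core of mitochondrial origin. Their means lay between −0.04 (COX9) and 0.39 (COX5A), 8 of 9 above 0, against 65.8% of all ORFs. Of the 9, 0 had tetYFH1 values all above or all below those of W303 as labelled, against 13.3% and 9.31% of all ORFs. COX4 and COX5B lay above on all 4 arrays when the W303 ratios were turned, as did 14% of all ORFs. An exact 0 on B1 or B2 was read by 6 of the 9 (66.7%), against 40% of the 40 genes and 36% of all ORFs. COX5A (YNL052W) and COX5B (YIL111W) are alternative forms of subunit V, the first used in air and the second when oxygen is low. COX5A read 0.81 and 0.28 in pair A and 0.00 and 0.46 in pair B, and COX5B 0.06, 0.74, 0.00 and 0.30. Their order changed between A1 and A2, so the 2 forms could not be set apart in tetYFH1. In W303 COX5B (0.53 and 0.42) was above COX5A (−0.32 and 0.06) on both arrays as labelled, an order that turning the ratios reverses. COX6 (YHR051W) had a mean of 0.36 with −0.41 on B1 and 1.11 on B2. COX9 (YDL067C) was the 1 subunit below 0 on 3 of 4 arrays, at −0.06, 0.63, −0.46 and −0.29 on A1, A2, B1 and B2. COX12 (YLR038C) was the 1 subunit above 0 on all 4, between 0.25 and 0.46. The zinc-binding subunit COX4, and COX7, COX8 and COX13, had means of 0.10 to 0.27.

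Cytochrome c, the heme protein that shuttles electrons from complex III to complex IV, had the highest median of the groups, 0.72 over 2 genes. CYC1 (YJR048W), its main form in air, read 0.86 on A1, 0.69 on A2 and 1.00 on both B1 and B2, against 0.32 and −0.02 on the W303 arrays. All 4 tetYFH1 values were above both of W303, as labelled and turned. The mean of 0.89 ± 0.16 (SD, n = 2; 95% interval 0.37 to 1.40), 1.85-fold higher, had an unadjusted limma p of 0.00428 and an adjusted p of 0.311. Both values in pair B were exactly 1, a whole number on arrays where 42.2% (B1) and 24.7% (B2) of all ORFs read whole numbers. CYC7 (YEL039C), the form known from low oxygen, read 0.64 and 0.85 in pair A and 0.00 and 0.73 in pair B. It was as high in W303, at 0.34 and 0.75, and its difference between the strains was 0.010 (95% interval −0.91 to 0.93), or 1.10 (interval 0.18 to 2.02) with the W303 ratios turned.

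The ATP synthase consists of the catalytic head F1, which makes ATP, and a membrane part with a stator stalk. Its 13 measured genes had means between −0.002 (ATP3) and 0.46 (TIM11), with a median of 0.21. In F1, ATP1 (alpha), ATP2 (beta), ATP3 (gamma), ATP16 (delta) and ATP15 (epsilon) had a median of 0.11. ATP1 (YBL099W) read 0.37 on A1, 0.18 on A2 and exactly 0 on B1 and B2, against −0.33 and −0.30 in W303. ATP2 (YJR121W) read 0.25, 0.08, 0.00 and 0.11 on the tetYFH1 arrays, and −0.22 and −0.44 in W303. Of the 5 F1 genes, ATP1, ATP2 and ATP15 lay above W303 on all 4 arrays with W303 values below 0, while ATP3 and ATP16 overlapped with W303. Of all ORFs 13.3% lay above W303 on all 4 arrays. Like ATP1, ATP15 read exactly 0 on B1 and B2. None (0 of 5) lay above with the W303 ratios turned, where 14% of all ORFs did. The stalk and membrane genes ATP4, ATP5, ATP7, ATP14, ATP17, ATP20 and TIM11 had a median of 0.38. On B1, 4 of these 7 read between 0.88 and 1.00 (ATP5, ATP7, ATP14 and TIM11), while on B2 the same genes read 0.19 to 0.36. ATP7 and TIM11 read exactly 1 on B1, where 42.2% of all ORFs read whole numbers. The medians of F1 and of these 7 were 0.21 and 0.29 in pair A, and 0.00 and 0.54 in pair B. TIM11 (YDR322C-A) and ATP20 (YPR020W), which help the enzyme to form dimers, differed on B1, at 1.00 and 0.00. INH1 (YDL181W), the inhibitor that stops the enzyme from splitting ATP, read between −0.004 and 0.21 in tetYFH1.

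Set side by side, the medians of the complexes in tetYFH1 were 0.21 (NADH dehydrogenases), 0.24 (complex II), 0.28 (complex III), 0.27 (complex IV) and 0.21 (ATP synthase), with cytochrome c at 0.72. In pair A they were 0.16, 0.50, 0.41, 0.29 and 0.26, and 0.76 for cytochrome c. In pair B they were −0.12, −0.01, 0.28, 0.15 and 0.13, and 0.68 for cytochrome c. Apart from cytochrome c, which rests on 2 genes, the complexes lay within 0.07 of each other in their medians over both pairs, less than the gap between the pairs for each of them (0.13 to 0.51).

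Subunits that carry an iron-sulfur cluster or a heme were compared with the others, since frataxin serves cluster assembly. The 7 such genes (SDH2 and RIP1 for clusters; CYT1, CYC1, CYC7, SDH3 and SDH4 for heme) had a median of 0.54 in tetYFH1, against 0.26 for the 33 others. The 5 heme genes had a median of 0.55 and the 2 iron-sulfur genes 0.20. By array, the median of the 7 exceeded that of the 33 by 0.31 on A1, 0.29 on A2 and 0.09 on B1 and was 0.04 lower on B2. On the W303 arrays it was 0.06 higher and 0.03 lower. Between the strains the 7 and the 33 had median differences of 0.37 and 0.36, or 0.28 and 0.15 with the W303 ratios turned. The gap in tetYFH1 was 0.06 without B1, and 0.05 without ORFs that read whole numbers on B1 or B2.

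The W303 arrays served as the control for the drug, and for these genes they disagreed with each other. On W303 array 1, 32 of the 40 genes were below 0 (median −0.29), and on array 2, 30 were above 0 (median 0.11). All ORFs had medians of 0.07 and 0.02 there. Opposite signs on the 2 arrays were found for 24 of the 40 genes (60%), against 47.9% of all ORFs. The 9 genes below 0 on both (22.5%, against 21.9% of all ORFs) were NDI1, NDE1, COR1, QCR2, ATP1, ATP2, ATP3, ATP15 and ATP20. The 7 above 0 on both (17.5%, against 30.1% of all ORFs) were SDH1, RIP1, QCR9, COX4, COX5B, COX9 and CYC7. Since array 1 and array 2 carried the dyes the other way round, the dye and the array cannot be told apart within this single pair.

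The difference between tetYFH1 and W303 asked which of these genes responded otherwise where doxycycline turns off YFH1. With limma, 0 of the 40 passed an adjusted p of 0.05 for the difference, as did 0% of all ORFs, and the smallest adjusted p was 0.765. An unadjusted p under 0.05 was found for 3 of the 40 (7.5%, against 6.33% of all ORFs), 2 higher (3.79% of all ORFs) and 1 lower (2.54% of all ORFs). The 3 were NDE2, at −2.09 (SE 0.534, 95% interval −3.34 to −0.85, unadjusted p 0.00482), NDE1 at 1.16 (interval 0.13 to 2.20) and QCR2 at 0.92 (interval 0.05 to 1.80). CYT1 followed at 0.83 and CYC1 at 0.74, with intervals that held 0. With the W303 ratios turned, NDE2 stayed below 0 at −1.65 (interval −2.89 to −0.40), but NDE1 was at −0.08 and QCR2 at −0.41, both on the other side of 0, and CYT1 was at 0.28. The 3 genes with an unadjusted p under 0.05 (7.5%, against 3.95% of all ORFs) were then NDE2, CYC7 and CYC1, which was at 1.04 (interval 0.15 to 1.93). The median difference of the 40 genes was 0.37, against 0.07 for all ORFs, and 34 of 40 were above 0 (57.1% of all ORFs). The median was 0.15 with the W303 ratios turned, and 32 of 40 were above 0 (63.3% of all ORFs). The median difference was 0.12 without W303 array 1 and 0.56 without W303 array 2, so that 1 array set much of its size.

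**Figure D5:**
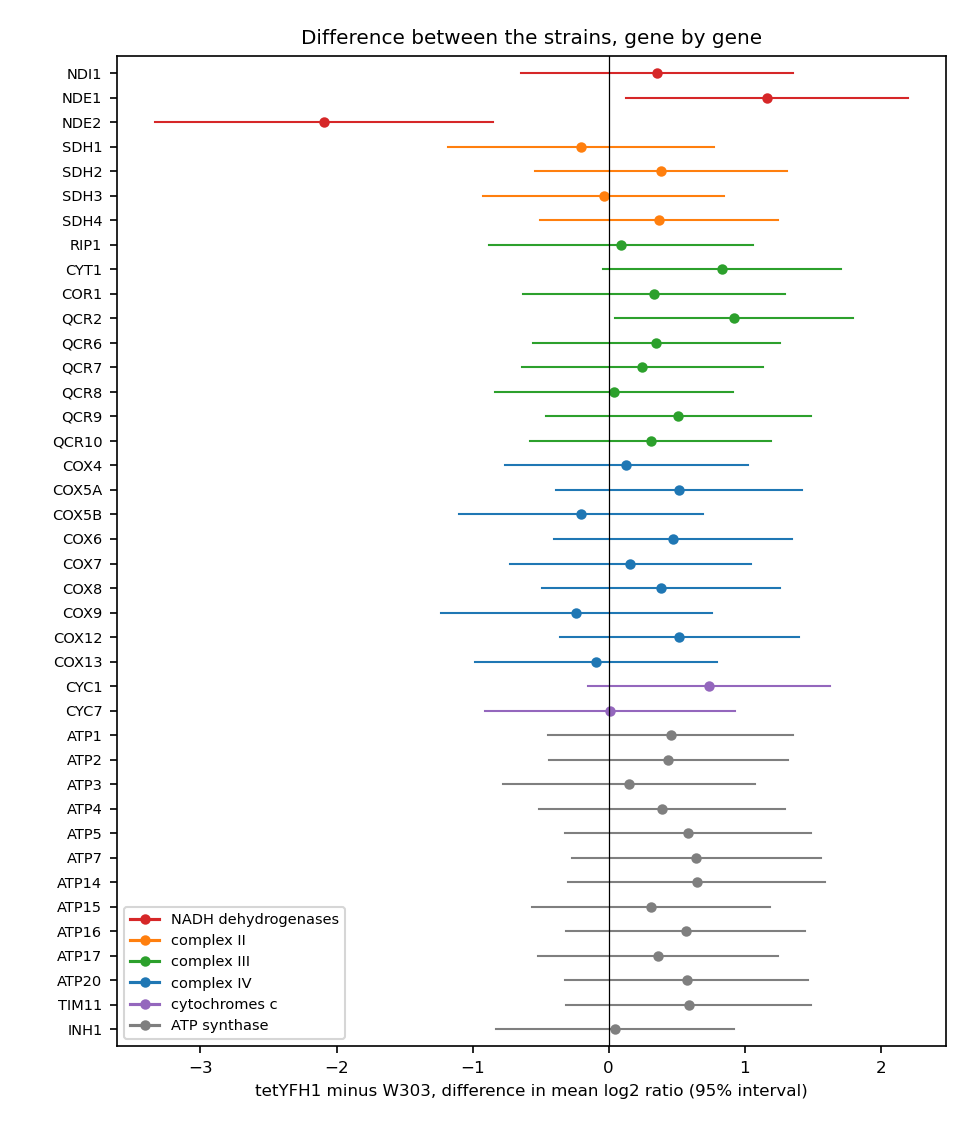
Difference in mean log2 ratio, tetYFH1 minus W303, for each of the 40 genes (points, coloured by complex), with the 95% interval of the limma fit (lines). The interval lies wholly below 0 for NDE2 (−3.34 to −0.85) and wholly above it for NDE1 and QCR2, and holds 0 for the other 37 genes. With the W303 ratios turned, NDE1 and QCR2 move to −0.08 and −0.41.

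In 12 of the 40 genes (30%) all 4 tetYFH1 values lay above both W303 values, which held for 13.3% of all ORFs. They were NDE1, COR1, QCR2, CYT1 and QCR9, then CYC1, and ATP1, ATP2, ATP5, ATP7, ATP15 and ATP20 of the ATP synthase. Of these, COR1, ATP1 and ATP15 read exactly 0 on both B1 and B2, and ATP2 and ATP20 on B1. That 0 was the lowest tetYFH1 value of each, so their place in the count rests on W303 values below 0. NDE2 was the 1 gene (2.5%) with all 4 values below, which held for 9.31% of all ORFs. Complexes II and IV had 0 genes of either kind. With the W303 ratios turned, the count above was 6 of 40 (15%, against 14% of all ORFs), namely SDH1, QCR9, COX4, COX5B, CYC1 and CYC7. QCR9 and CYC1 were thus the 2 genes above W303 either way. The share of all ORFs above W303 either way was not computed, and both genes read exactly 1 on B1 and B2. The count below was then 2 of 40 (5%, against 6.75% of all ORFs), NDE2 and QCR2.

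Genes that assemble, supply or control these complexes were looked at in the same fit. Of 88 genes in 8 lists, 75 in 7 lists were measured, and 0 passed an adjusted p of 0.05 in tetYFH1 or in the difference, with 5 of 75 (6.67%, against 9.46% of all ORFs) at an unadjusted p under 0.05 in tetYFH1. The lowest was SHH4 (YLR164W), a mitochondrial protein related to SDH4, which read −1.51 and −1.29 in pair A and −1.0 and −1.28 in pair B, against −0.05 and 0.52 on the W303 arrays. As for NDE2, all tetYFH1 values were below those of W303, and the mean of −1.27 ± 0.19 (SD, n = 2) missed the threshold with a limma adjusted p of 0.0864. SDH4 itself did not share this pattern. STF2, known from the regulation of the ATP synthase, had a mean of −0.63 (adjusted p 0.501), and RCF2, which binds complex IV, 0.51 (adjusted p 0.527).

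The assembly factors gave small values. The medians in tetYFH1 were 0.01 for 5 complex II factors, 0.17 for 11 complex III factors and heme lyases, 0.08 for 25 complex IV factors and 0.21 for 10 ATP synthase factors. CYT2, the lyase that attaches heme to cytochrome c1, was above 0 on all 4 arrays, at 0.40, 0.43, 1.00 and 0.57 (mean 0.60, limma adjusted p 0.501). COX17, the copper chaperone of complex IV, was also above 0 on all 4, between 0.27 and 0.81. It read 0.72 and 0.99 in W303 as labelled, and with those ratios turned all 4 tetYFH1 values lay above W303. The 11 genes of ubiquinone synthesis had a median of −0.06, with 3 of 11 means above 0, against 65.8% of all ORFs. HAP4, the regulatory subunit of the activator of respiratory genes, had 0.65 and 0.34 in pair A and −0.18 and 0.75 in pair B. It read −0.32 on both W303 arrays as labelled, below all 4 tetYFH1 values, and overlapped with them when turned. Its mean of 0.39 had a limma adjusted p of 0.611. ROX1, another of the 6 regulators, read 0.12 and 0.01 in pair A and 0.00 and 0.65 in pair B. These values also all lay above those of W303 as labelled (−0.64 and −1.01) but not when turned, while HAP1 overlapped with W303. Of all ORFs, 13.3% lay above W303 as labelled on all 4 arrays. The 6 regulators had a median of 0.08.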

How the data were processed

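Per the labels, RNA from treated and untreated cells was labelled indirectly with Cy5 and Cy3, with the dyes swapped between the arrays of a pair. The deposited values are log2 ratios made by the authors, 1 for each ORF on each array, used here without further normalization. How arrays were scanned, corrected for background and normalized between dyes is not given in the sources used here. The whole numbers on B1 and B2 were kept. Genes were named through the R64 gene table (5675 of 6174 ORFs matched). Pair means were fitted with limma 3.58.1 (R 4.3.3), 1 coefficient per strain, moderated by empirical Bayes (residual degrees of freedom 1, prior 6.64), two-sided, and Benjamini-Hochberg adjustment over all ORFs. W303, with 1 pair, was assumed to vary like tetYFH1. On data simulated for the tetYFH1 comparison the fit found 99% of changes of 2 in log2 ratio but 57.2% of those of 1. Smaller changes were not simulated. Unlike the data, the simulation gave pairs A and B equal spread and equal changes and no excess of whole numbers, so these shares may be too high. False calls were more frequent than the threshold allows in most simulated runs, so adjusted p-values may be too small. In the data, YFH1 had a limma adjusted p of 0.0177, but 0.150 after centring and 0.316 with robust moderation. Precision is limited by the number of arrays. The genes, lists and tests were chosen with earlier results of these data known. All 40 genes could be named, and of each list the 3 with the smallest p. Cofactors and the parts of the ATP synthase were assigned from textbook knowledge, the latter after the values were seen. The alternatives were centring and scaling, arrays as replicates (alone, with the hybridisation number, or with pairs as a random block), robust moderation, an adjusted p under 0.1, omission of whole-number ORFs, arrays or pairs, W303 ratios turned, and SDH3 and SDH4 moved.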

Additional observations from a re-analysis of the deposited data

Results flagged for a closer look

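In tetYFH1, 3 of the 40 genes (7.5%) had 1 array far from the other 3 by Dixon's criterion, against 9.33% of all ORFs, and chance gives about 1 in 20 groups. The share among the 40 genes was thus no higher than that over all ORFs. All 3 were on B1, the array with the widest spread and the most whole numbers. QCR6 read −0.33 there, ATP20 read 0.00 and TIM11 read 1.00.

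Of the 40 genes, 2 (5%, against 3.3% of all ORFs) were above 0 on all 4 tetYFH1 arrays and below 0 on both W303 arrays. They were NDE1 and QCR2, with differences between the strains of 1.16 and 0.92 in log2 ratio, each with a limma adjusted p of 0.784. With the W303 ratios turned these differences were −0.08 and −0.41, so that both patterns rest on the direction the labels give for W303.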

How the results depend on the processing

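No member passed in W303 under any alternative tried. In tetYFH1 the count of genes passed was 0 of 40 (25 of all ORFs). It became 2 with each array a replicate (86 of all ORFs) or with pairs as a random block (99). It was 1 with the hybridisation number as a replicate block (59 of all ORFs) and 1 at an adjusted p under 0.1 (39). With the arrays left entered singly, it was 1 without pair A, where 106 of all ORFs passed. Without pair B it was 3 (NDE2, CYC1 and CYC7), where 300 of all ORFs passed. The replicate block is not a pairing by the labels: the dye deviations of pairs A and B correlated at 0.11 over all ORFs, those of W303 with A and B at −0.09 and −0.16. For the difference between strains, 1 gene (NDE2) passed where either pair was left out and the arrays were entered singly. Of all ORFs, 100 passed there without pair A and 140 without pair B. With the W303 ratios turned 0 genes and 3 of all ORFs passed (0 of all ORFs as labelled). The NDE2 mean lay between −2.48 and −1.27 over 13 alternatives, with an adjusted p from 1.90e-04 to 0.836, and 5 of them passed.

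The median of the 40 genes was 0.18 without pair A. In W303 the median of −0.12 became 0.12 with the ratios turned, and lay between −0.29 and 0.11 with 1 array left out. For the difference it was 0.15 with W303 turned, 0.27 without pair A and between 0.12 and 0.56 with 1 array left out. Without pair A the medians were −0.12 (NADH dehydrogenases), −0.0093 (complex II) and 0.15 (complex IV), and without pair B complex III had 0.41. Without whole-number ORFs, which left NDE1 and NDE2, the NADH dehydrogenases had −0.67. Cytochrome c had 0.66 after centring. With 1 array left out, the medians ranged from 0.13 to 0.35 (complex IV), from 0.63 to 0.81 (cytochrome c) and from 0.14 to 0.30 (ATP synthase). The gap between cofactor subunits and the others was 0.046 without whole-number ORFs, 0.21 without pair A and between 0.059 and 0.24 with 1 array left out.

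Of 500 values of single genes in tetYFH1 under alternatives, 16 changed sign, none of them past the threshold. These were SDH3 (−0.055 centred, −0.011 scaled, −0.092 without pair A, −0.081 to 0.101 with 1 array left out), ATP15 (−0.021 centred), NDI1 (−0.12), SDH1 (−0.091) and RIP1 (−0.17) without pair A, COX9 (0.29) and ATP3 (0.21) without pair B, and, with 1 array left out, RIP1 (−0.0034 to 0.24), COX6 (−0.022 to 0.74), COX9 (−0.21 to 0.13) and ATP3 (−0.19 to 0.19). With W303 turned, the differences of NDE1 and QCR2 became −0.084 and −0.41. The cause of these changes was not tested.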
